A study of Mus musculus with 2 samples.

Results

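The genes of cholesterol and fatty acid synthesis were examined in early mesodermal cells made from mouse embryonic stem cells. The set holds 32 genes, namely the enzymes of the mevalonate and sterol pathway, the regulators of the sterol response, 3 genes of sterol transport and the main enzymes of fatty acid synthesis and desaturation. They were taken by symbol or synonym from the probe annotation of the array. Of the 32 genes, 29 had a probe, among 16388 named genes in all, and 28 lay above background on both arrays. Acat2, Hmgcs1 and Fdps were not matched to a probe and were not analysed here. Each of the 29 genes had 1 probe, so no second probe checks any of them.

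The gene-trapped sample came from stem cells in which both alleles of AU019823 were disrupted by a gene trap, and the other sample from revertant cells, which the labels call almost identical to wild-type. Both cultures grew on OP9, a stromal line of mouse bone marrow that can also turn into fat cells, and cells with Flk-1 on their surface were sorted with an antibody. The labels give day 4.5 in the descriptions and 4 days of coculture in the protocol, with RNA from 350000 revertant and 300000 gene-trapped cells. Each group is 1 array, the labels carry different codes of unstated meaning for the cells, and genotype cannot be told apart from culture or clone. No p-value or standard error can be given, and every difference below compares these 2 arrays only.

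Cells build cholesterol from acetyl-CoA through mevalonate, the isoprenoid pyrophosphates, squalene and lanosterol, and the last steps remove methyl groups and move double bonds in the sterol ring. The transcription factors SREBP1 and SREBP2, products of Srebf1 and Srebf2, drive most of these genes when sterols in the endoplasmic reticulum are low. Scap carries the factors to the Golgi for cleavage, and the Insig proteins hold Scap back when sterols are plentiful. Fatty acid synthesis shares the supply of acetyl-CoA and is a classic target of SREBP1.

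Signals are linear spot intensities as scanned, and differences are log2 of normalized signal, gene-trapped minus revertant. The median probe read 47.5 in the revertant scan and 38.6 in the gene-trapped scan, so equal scanned values mean a positive difference after normalization. Background was the mean of blank spots plus 2 SD, at 24.99 and 22.3. Positive control spots, 24 of each of 2 kinds, had SDs of 0.107 and 0.0988 in the log2 difference before quantile normalization. That is a spread between spots and not between cultures. Their median signals of 8568 and 24811 in the revertant scan were above that of every member, so the spread at member signals is not given by them. The limit for a count of higher or lower genes was 2-fold, that is a log2 difference of 1 in size. Kdr, which encodes Flk-1, was well above background with 1025 in revertant and 537 in gene-trapped cells, and all 8 mesoderm markers were above background on both arrays. This cannot check the cell type, since 13714 of all 16388 genes were above background, as were 9 of 10 adipocyte and 9 of 10 stromal markers. The log2 difference of Kdr was -0.65, and -2.04 with the local background column subtracted, where that column was 453 in gene-trapped cells. The trapped gene AU019823 read 486 and 297, a log2 difference of -0.39, and since the place of its probe relative to the trap is unknown, this does not check the labels.

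Most of the lipid synthesis genes had similar signals on the 2 arrays, and the 2 genes that differed by more than 2-fold were lower in gene-trapped cells. The sterol reductase gene Tm7sf2 was 4.08-fold lower and the cholesterol transporter gene Npc1 was 2.11-fold lower. The sterol isomerase gene Ebp and the desaturase gene Scd1 were the next lowest at 1.76-fold and 1.56-fold, short of 2-fold. No member was 2-fold higher, and the highest was Scap at 1.41-fold.

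In counts, 2 of 28 members were at least 2-fold lower, against a background of 1.08% over 13714 genes above background. At least 2-fold higher were 0 of 28, against 0.335%. These shares, and the 1.5-fold shares below, include dim genes with compressed differences and are not matched to the members in signal. The SD of the log2 difference was 0.296 over all genes, but 0.428 among genes nearest in signal to Tm7sf2 and 0.432 for Npc1. Only Abca1, at 0.189, had nearest genes with a smaller SD than all genes. The shares past each limit at the members' own signals were not counted. The median log2 difference of the 28 members was -0.08, beside 0.01 over all genes. By sign, 16 members lay below 0 and 12 above. In the authors' deposited table, 2 of 28 were again lower and 0 higher, but there 4.02% of all genes were at least 2-fold lower and 2.01% higher. In size, 22 of the 28 members (78.6%) differed by less than 0.3 on the log2 scale, beside 80.3% of all genes, whose dim members have compressed differences. At a 1.5-fold limit, chosen after the values were seen, 4 members were lower, against 3.53% of all genes, and 0 were higher, against 2.29%. The sign of the small differences depended on the processing: in 14 of 28 members it turned in at least 1 of 11 other settings.

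**Figure D1:**
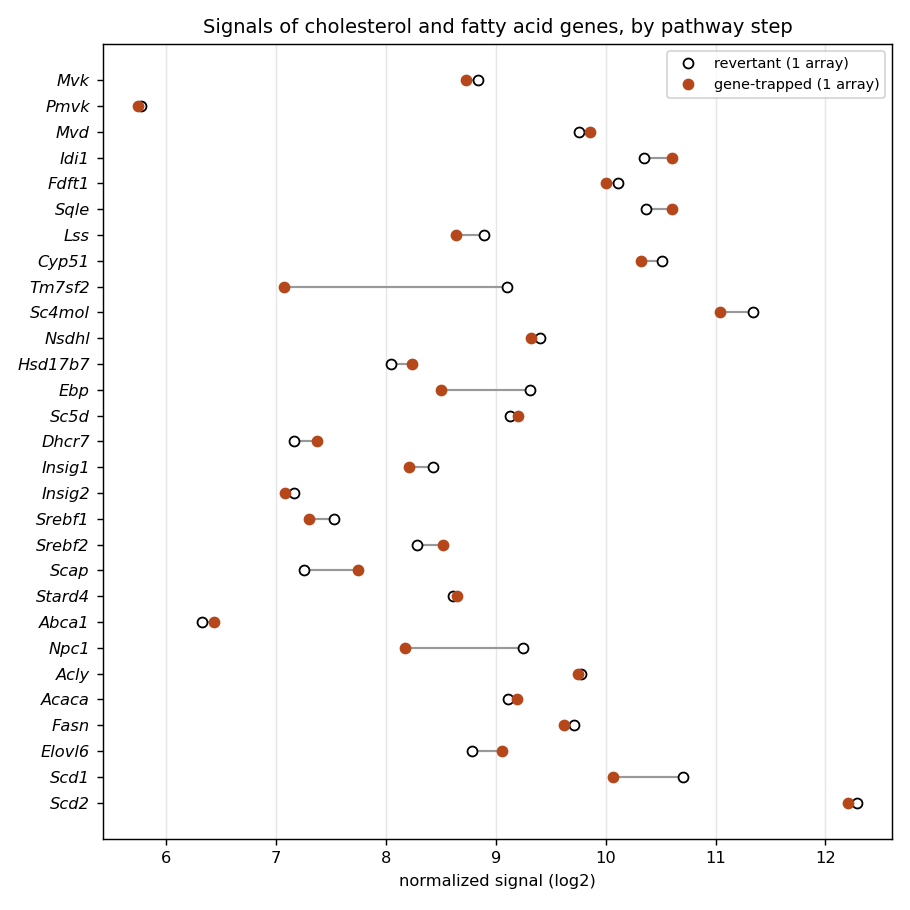
Normalized log2 signal of the 29 genes with a probe, in pathway order from the top, with 1 open point for the revertant and 1 filled point for the gene-trapped array. The pairs lie close together except at Tm7sf2 (9.10 and 7.07), Npc1 (9.25 and 8.17), Ebp (9.31 and 8.50), Scd1 (10.71 and 10.07) and, the other way, Scap (7.26 and 7.75); Pmvk was not above background.

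The mevalonate steps, which lead from acetyl-CoA to the isoprenoid units, had no gene past 2-fold among the 3 measured above background. Mvk, the kinase of mevalonate, read 473 in revertant cells against 353 in gene-trapped cells, which gave a log2 difference of -0.11. Mvd, which decarboxylates mevalonate pyrophosphate, read 900.3 and 818, a difference of 0.10. Idi1, the isomerase that makes the reactive isoprenoid unit, read 1389 and 1393, a difference of 0.25. Pmvk, the phosphomevalonate kinase, was not above background, with 24.4 and 20.9, so its level was not measured. These steps therefore showed values on both sides of 0, the largest of them a 1.19-fold difference. With the local background column subtracted all 3 turned sign, to 0.22 for Mvk, -0.16 for Mvd and -0.36 for Idi1.

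The entry to sterols was likewise close on both arrays. Fdft1, the squalene synthase, read 1167 and 915, a log2 difference of -0.11. Sqle, the squalene epoxidase and a rate-limiting enzyme, read 1402 and 1391, a difference of 0.23. Lss, which closes the ring to lanosterol, read 489 and 331, a difference of -0.25. The largest of these differences, that of Lss, was 1.19-fold.

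Among the 11 squalene and sterol genes, Tm7sf2 alone passed 2-fold. Tm7sf2 reduces the ring double bond that is left after Cyp51 has removed a methyl group from lanosterol. Its signal was 568 in revertant cells against 89.9 in gene-trapped cells. The log2 difference of -2.03 was rank 10 from the lowest among 13714 genes. The central 95% of the 500 genes closest in mean signal ran from -0.95 to 0.73, so Tm7sf2 lay below that range. The enzymes on either side of it did not share that size. Cyp51, the demethylase of the step before, read 1551 and 1144, a difference of -0.19. Sc4mol, now named Msmo1, the methyl oxidase of the step after, read 2860 and 1892, a difference of -0.30. Lbr, a nuclear envelope protein with the same reductase activity as Tm7sf2, is no member and was looked up after the values were seen. It read 1413 and 889, a difference of -0.41, inside the range of -0.97 to 0.71 of the genes nearest to it.

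The later sterol steps held 1 further low gene. Ebp, which shifts a double bond within the sterol ring, read 659 in revertant cells against 298 in gene-trapped cells, which gave a log2 difference of -0.81 at rank 238 from the lowest. That value lay inside the range of -0.87 to 0.72 of genes with a similar signal, near its lower end. Nsdhl, the dehydrogenase that removes the ring's carboxyl group, read 699.6 and 561, a difference of -0.08. Hsd17b7, the keto reductase that acts with it, read 263 and 240, a difference of 0.19. The pathway's desaturase gene Sc5d read 578 and 508, a difference of 0.08. Dhcr7, which makes cholesterol from its direct precursor, read 127 and 117, a difference of 0.21. The last 2 enzymes, Sc5d and Dhcr7, thus had small positive differences, while Tm7sf2 and Ebp stood lowest among the sterol genes.

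To place the low genes beside their neighbours in the pathway, the 250 bases before the RefSeq start of Cyp51, Tm7sf2, Sc4mol and Ebp are shown, as the 2 lowest sterol genes and the steps on either side of Tm7sf2. They are read 5′ to 3′ on the strand of the gene, from the RefSeq promoter table of build GRCm38.p6, in which 25 of the 32 genes were found. Capitals mark matches to CCAAT, the box bound by NF-Y, and to GGGCGG, a box bound by Sp1, on either strand, so that a match on the opposite strand reads ATTGG or CCGCCC. The windows lie at chr5:4104698-4104947, chr19:6067851-6068100, chr8:64733579-64733828 and chrX:8193513-8193762, all on the minus strand.
Cyp51: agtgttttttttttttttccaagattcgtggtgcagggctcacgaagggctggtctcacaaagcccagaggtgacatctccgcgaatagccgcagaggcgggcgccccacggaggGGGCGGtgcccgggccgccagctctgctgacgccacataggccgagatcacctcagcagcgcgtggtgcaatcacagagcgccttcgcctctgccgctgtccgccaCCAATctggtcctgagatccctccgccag
Tm7sf2: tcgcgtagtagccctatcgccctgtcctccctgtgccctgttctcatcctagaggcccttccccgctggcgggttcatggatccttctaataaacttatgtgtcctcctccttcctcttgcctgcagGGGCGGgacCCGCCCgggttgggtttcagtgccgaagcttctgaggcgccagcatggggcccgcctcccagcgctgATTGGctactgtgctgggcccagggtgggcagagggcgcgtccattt
Sc4mol: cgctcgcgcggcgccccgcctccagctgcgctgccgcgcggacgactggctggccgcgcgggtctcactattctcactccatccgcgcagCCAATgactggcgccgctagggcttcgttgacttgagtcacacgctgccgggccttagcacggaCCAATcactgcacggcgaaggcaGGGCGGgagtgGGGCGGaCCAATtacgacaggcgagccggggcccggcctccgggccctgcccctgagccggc
Ebp: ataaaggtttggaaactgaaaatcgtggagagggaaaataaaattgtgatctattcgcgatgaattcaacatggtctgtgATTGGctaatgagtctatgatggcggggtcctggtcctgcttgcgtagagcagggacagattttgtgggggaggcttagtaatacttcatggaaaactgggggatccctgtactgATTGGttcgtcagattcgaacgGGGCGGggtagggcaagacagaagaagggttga

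All 4 windows hold both boxes, and no match overlaps another. In Tm7sf2 the CCAAT match is on the opposite strand and begins 47 bases before the start, and in Cyp51 it is on the same strand and begins 29 bases before it. Sc4mol has 3 CCAAT matches and Ebp has 2. Over the genes of the set with a promoter entry, 19 of 25 held CCAAT in a window, beside 37.5% of all genes in the table, and 21 of 25 held GGGCGG, beside 35.3%. The E-box CACGTG was found in 6 of 25, beside 6.86%, and the sterol element TCACNCCAC in 1 of 25, that of Hmgcs1, which had no probe, beside 1.23%. Genes with several annotated starts have several windows and so more chances of a match. The matches are a description of letters only.

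**Figure D2:**
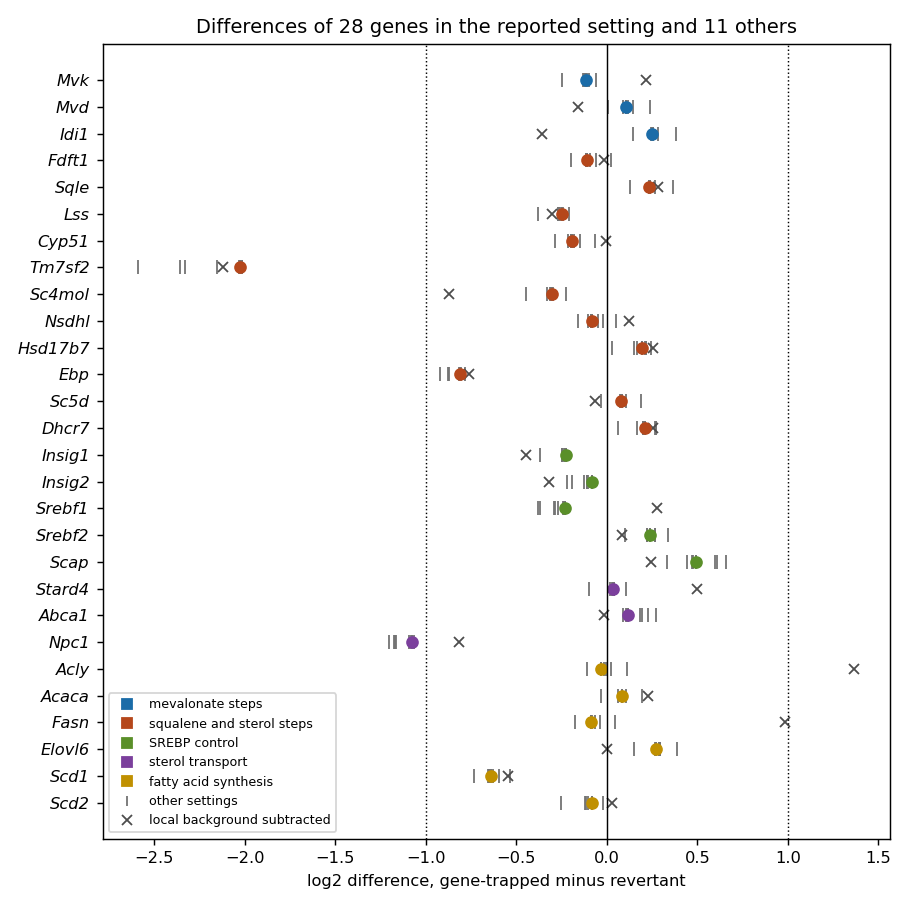
Log2 difference of the 28 members above background, gene-trapped minus revertant, in pathway order. Coloured points are the reported values, grey ticks the other settings and crosses the setting with the local background column subtracted; dotted lines mark 2-fold. Tm7sf2 lies beyond the lower line in all settings, from -2.59 to -2.02, while the crosses of Acly (1.37) and Fasn (0.99) lie far from their points.

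The regulators of the sterol response lay on both sides of 0 and none reached 2-fold. Srebf2, the main activator of cholesterol genes, read 313 in revertant cells against 302 in gene-trapped cells, which gave a log2 difference of 0.24. Srebf1, which acts more on fatty acid genes, read 173 and 110.0, a difference of -0.23. Scap, the escort protein, read 138 and 161, a difference of 0.49, the highest of the set, at rank 521 from the highest and inside the range of -1.02 to 0.75 of genes with a similar signal. It was one of 3 members with a scanned value that was not lower on the gene-trapped array, next to Idi1 and Elovl6. Insig1, itself a strong SREBP target, read 348 and 234, a difference of -0.22. Insig2 read 127 and 90.7, a difference of -0.08.

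Of the 3 sterol transport genes, Npc1 was lower and the others were close to 0. Npc1 moves cholesterol out of late endosomes and lysosomes. It read 628 in revertant cells against 228 in gene-trapped cells, which gave a log2 difference of -1.08 at rank 116 from the lowest, below the range of -0.91 to 0.76 of genes with a similar signal. With the local background column subtracted its difference was -0.82, short of 2-fold, so that 1 of 28 members was counted as lower there, against 1.35% of all genes. Stard4, a cytosolic sterol carrier, read 400.4 and 333, a difference of 0.03, and of 0.50 with the local background column subtracted. Abca1, which exports cholesterol and is a target of the liver X receptors, read 53.7 and 49.2, a difference of 0.12. The spot signals of Stard4 and Abca1 thus kept nearly the same place on both arrays, and that of Npc1 did not.

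Fatty acid synthesis was close on both arrays up to the saturated fatty acid, and of the 2 desaturase genes Scd1 had the lower value. Acly, which makes cytosolic acetyl-CoA from citrate, read 916 in revertant cells against 763 in gene-trapped cells, which gave a log2 difference of -0.03. Acaca, the carboxylase that commits acetyl-CoA to fatty acids, read 572 and 504, a difference of 0.08. Fasn, the fatty acid synthase, read 873 and 696, a difference of -0.09. The normalized signals of these 3 enzymes differed between the arrays by at most 1.06-fold. Acly and Fasn depended on the background handling: with the local background column subtracted Acly was 1.37 and Fasn 0.99, so that 1 of 28 members was at least 2-fold higher, against 2.04% of all genes in that setting. On the revertant array the local background of Acly, 923, exceeded its own spot signal.

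Elovl6, which lengthens palmitate, read 453 in revertant cells against 455 in gene-trapped cells, which gave a log2 difference of 0.27. Scd1, which puts the first double bond into saturated fatty acids, read 1791 and 962, a difference of -0.64 at rank 409 from the lowest. Its value lay inside the range of -1.12 to 0.71 of genes with a similar signal. Scd2, the form known from embryo and brain, read 5538 and 4207, a difference of -0.08. The pair of desaturase genes therefore had unequal differences; whether they differ beyond culture spread was not tested, since there is no replicate.

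**Figure D3:**
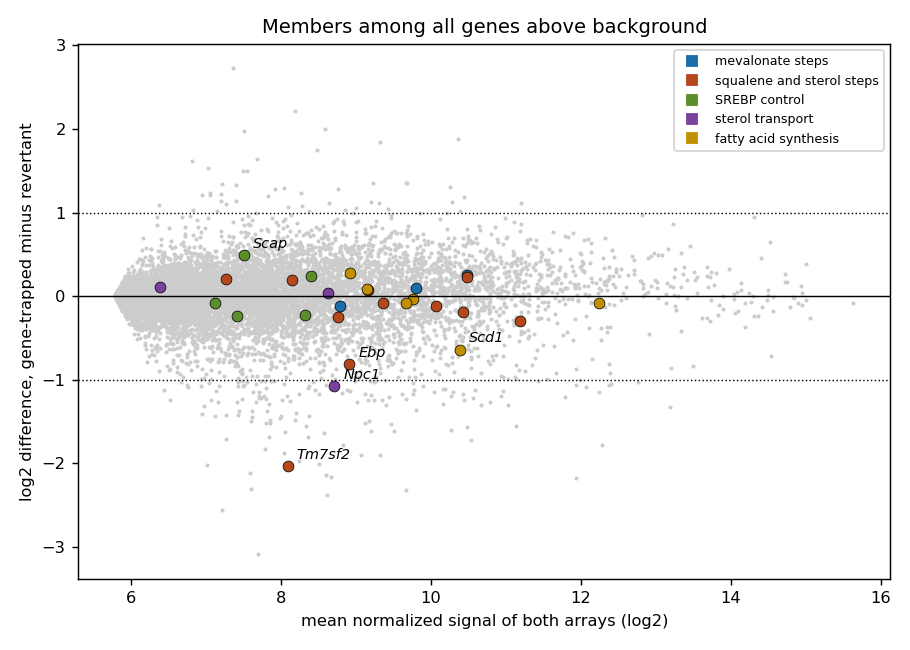
Log2 difference against mean normalized log2 signal for the 13714 genes above background (grey) and the 28 members (coloured by group); dotted lines mark 2-fold. Tm7sf2 and Npc1 lie below the lower line, and 26 of the 28 members lie inside the central 95% of the 500 genes nearest to each in signal.

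Genes of the same pathways outside the set were looked at through 5 lists: other sterol-regulated genes, factors of SREBP transport and cleavage, sterol handling, electron supply to the oxidising enzymes, and use of isoprenoids with fatty acid oxidation. Of 59 genes listed, 52 were measured and 51 lay above background. Of these 51, 1 was at least 2-fold lower and 0 were higher, and the median was -0.06. The shares of all genes were the same 1.08% and 0.335%, again not matched in signal. Some other settings gave more. With the local background column subtracted, 2 were lower (Me1 at -1.31 and Cyb5, just past the limit) and 2 higher (Sar1b at 2.38 and Acadl at 1.04). Of all genes, 1.35% were lower and 2.04% higher there. The authors' deposited table gave 2 lower (Sec24d at -2.20 and Abcg1 at -1.29) and 1 higher (Pdss1 at 1.72), against 4.02% and 2.01% of all genes. Pdss1 was near the background limit, with 25.7 in the revertant and 28.4 in the gene-trapped scan. In the reported setting Pdss1 had 0.17 and Abcg1 -0.37. Median scaling, offset 16 and no background correction each gave 2 lower (Sec24d and Cyb5) and 0 higher. In these settings 1.48% to 1.74% of all genes were lower.

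The 1 gene past 2-fold was Sec24d, a coat protein of the vesicles that leave the endoplasmic reticulum, the route by which Scap carries SREBP. It read 198 in revertant cells against 49.5 in gene-trapped cells, which gave a log2 difference of -1.24, below the range of -0.75 to 0.49 of its nearest genes. It turned to 0.15 with the local background column subtracted. Sec23a, its partner in that coat, had -0.42, and Mbtps1, the protease that first cuts SREBP, had -0.06.

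Among the electron carriers, Cyb5, the cytochrome that feeds the desaturases and sterol oxidases, read 1112 and 459.7. Its log2 difference of -0.97 fell just short of 2-fold, at rank 163 from the lowest, and it was past 2-fold in 4 of 11 other settings. Some of the 11, such as the one with no filter, cannot change its value. Its reductase gene Cyb5r3 had -0.09 and the mitochondrial form Cyb5b 0.15. Por, the reductase that serves Cyp51 and Sqle, had -0.04. The low value thus belonged to 1 of the 5 carrier genes measured.

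In the list of other sterol-regulated genes, 13 genes were above background and 0 passed 2-fold, with a median of -0.07. Rdh11, a retinal reductase and SREBP target, had the largest difference, 0.61, with 381 in revertant and 491 in gene-trapped cells. In sterol handling, Apoe, a carrier of cholesterol between cells, had -0.58 with 3868 and 2099. In the list of isoprenoid use and oxidation, Acat1, the mitochondrial thiolase of ketone metabolism, had -0.80 with 426 and 183. Each of these stayed short of 2-fold.

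Fat cells and stromal cells make lipids too, and OP9 cells were in the culture, so their markers are given beside the low genes. Of 10 adipocyte markers, 9 were above background and Lep was not; 7 of the 9 lay below 0 and Adipoq was at least 2-fold lower, with 365 in revertant and 94.6 in gene-trapped cells. Their summed normalized signal was 1311 in revertant and 895 in gene-trapped cells, and their median difference was -0.16. All sums here include a constant of 50 for each gene, added before normalization. Cfd had -0.77, Fabp4 -0.62 and Cidec -0.46, while Pparg had -0.16, Lpl -0.05 and Plin 0.01. Of 10 stromal markers, 9 were above background and Dcn was not; 6 lay below 0, with Col1a1 at -1.49 and Acta2 at -1.30 past 2-fold lower, while Lum, Thy1 and Cxcl12 lay above 0. The stromal sum was 4505 in revertant cells against 2203 in gene-trapped cells, most of it from Acta2, and without Acta2 it was 1232 against 873. Both lists had medians below 0, the side on which Tm7sf2, Npc1, Ebp and Scd1 lay, and their part in these results was not tested. In sorted bulk cells, fewer cells of a type and less RNA per cell cannot be told apart.

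Markers of liver and endoderm, tissues of high sterol output, and of macrophages had similar sums on both arrays. A constant of 50, added to each spot before normalization, makes up a large part of these sums. Their likeness therefore says little about these cell types. The liver and endoderm markers above background read only 27.1 to 41.1 in the revertant scan. Of 9 liver and endoderm markers measured, 6 were above background and their sum was 356 and 358; Afp, Ttr and Apoa1 were not above background. Of 7 macrophage markers measured, Cd68, Csf1r and Laptm5 were above background, with sums of 282 on both arrays, and Emr1, Cd14, C1qa and Mrc1 were not above background on both. Of the 8 mesoderm markers, 5 lay above 0, and Mixl1 at 1.99 and Etv2 at 1.30 were past 2-fold higher. The sum of all 8 was 3270 in revertant and 5138 in gene-trapped cells. Most of the gap between these sums came from Etv2 and Mixl1, while Kdr at -0.65, Hand1 at -0.44 and Pdgfra at -0.02 lay below 0.

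**Figure D4:**
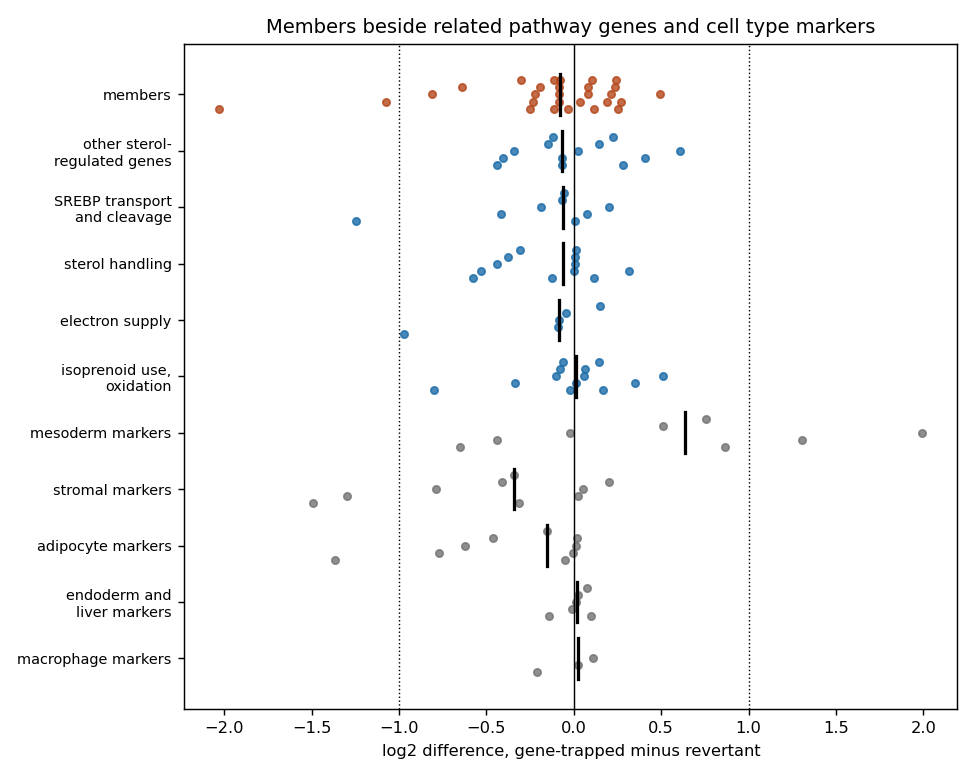
Log2 difference, gene-trapped minus revertant, of each gene above background in the member set, the 5 lists of related genes and the 5 marker lists. Each point is 1 gene, black bars are list medians and dotted lines mark 2-fold; the member median is -0.08, the stromal median -0.34, the adipocyte median -0.16 and the mesoderm median 0.63.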

How the data were processed

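RNA of 1 revertant and 1 gene-trapped sample was amplified, coupled to Cy5 by a TORAY protocol, per the labels' protocols, and measured on 1 one-colour array each. The deposited scanner files hold linear spot intensity, the median over each spot without background subtraction; per the file headers, scans at 3 gains were joined through least-squares fits. The scanner is not named in the sources used here. A second deposited table holds processed intensity, which on comparison is the scanned value minus a constant, scaled to a median of 25 per column; its direction is that of the scanned values and why 3127 and 3340 cells are empty is not stated.

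Intensities were corrected with normexp (offset 50) in limma 3.58.1 (R 4.3.3), quantile-normalized and put on the log2 scale; the offset compresses differences of dim genes. The local background column was not subtracted, since it followed spot signal. Blank and control spots and 2 flagged probe spots were left out after normexp. The brightest probe by mean scanned signal stood for a gene. Of 16631 probes with a symbol, none with several, 16628 match a current symbol or synonym in the RefSeq table of GRCm38.p6, and older symbols were updated where 1 gene fitted; 6842 probes have no symbol here. With 1 array per group there is no test, and precision is limited by that number. The steps were tested on simulated data in which only bright probes changed, by more than 2-fold, and with less spread than between these arrays. That does not check dim genes or differences near 2-fold. Tables and plots were made with Python 3.11.15, numpy 2.4.6, pandas 2.3.3 and matplotlib 3.10.9.

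Named are all members, AU019823 and Kdr, related genes past 2-fold and the largest difference of each related list; Lbr and further examples beside them were chosen after values were seen. The members, lists, motifs and settings were chosen with earlier results of these data known. The 11 other settings were median and 75th percentile scaling, cyclic loess, offset 16, no background correction, subtraction of the local background, correction for spot position by print block, no filter, a limit of 5 SD, the mean of a gene's probes and the authors' table.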

Additional observations from a re-analysis of the deposited data

Results flagged for a closer look

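One column of the scanner files that the comparison left out, the local background, held signal at the member probes. Over the 28 members its median was 388 for revertant cells and 217 for gene-trapped cells, whereas blank spots had 14.2 and 15.6. At the member probes it came to a median of 59.6% of the spot signal in revertant cells and 45.7% in gene-trapped cells. In the revertant scan it was at or above the spot signal for 2 members, Acly and Stard4, and in the gene-trapped scan for 0.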

How the results depend on the processing

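No paired analysis was possible because there is a single array for each genotype. Over 11 other settings, Tm7sf2 stayed past 2-fold lower in 11, from -2.59 (authors' table) to -2.02, and Npc1 in 10. No filter, the limit of 5 SD and the mean of a gene's probes repeat the reported values of both genes. The counts of settings for these genes therefore include some that could not differ. Ebp ran from -0.92 to -0.76 and Scd1 from -0.74 to -0.53, short of 2-fold in each. With the local background subtracted, 1 member was lower and 1 higher, Npc1 being -0.82 and Acly 1.37, and Sec24d turned to 0.15; the cause was not tested, and for Acly in revertant cells that column was 923 where the spot was 916. The members' count was 2 lower and 0 higher in each other setting, while the share of all genes lower ran from 0.903% with no filter to 4.02% in the authors' table. The member median ran from -0.17 under median scaling to 0.048 in the authors' table, which turns its sign; 75th percentile scaling shifted all genes, to a median of 0.15, and gave the members -0.03. Of the 28 members, 14 kept 1 sign in all settings and 21 when the local background setting is left aside. The mean of a gene's probes cannot change members with 1 probe, and no filter and the limit of 5 SD cannot change any value. Low signal over background limits Pmvk, not above background, and Abca1, whose signals were low.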
